A study of Mus musculus with 12 samples.

Results

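The genes described here belong to families of membrane proteins that ankyrin-B is known to anchor in heart muscle cells. All are called cargo genes below for their family, which does not mean that each product is a known cargo. The genes are Slc8a1 and Slc8a3, which encode sodium-calcium exchangers, Atp1b1, a beta subunit of the sodium pump, and Itpr1, Itpr2 and Itpr3, the inositol trisphosphate (IP3) receptors. These 6 genes were chosen by symbol from a table of 24528 genes, and all 6 were among the 12219 that passed the filter on low values. Expression was measured by poly-A RNA sequencing of gastrocnemius, a calf muscle, from 12 male mice aged 4 months. The 6 WT mice had the genotype Ank2f/f, in which both copies of the ankyrin-B gene are flanked by recombination sites, with no Cre listed. The 6 KO mice had the genotype Ank2f/f; HSA-Cre+, in which the skeletal actin promoter drives Cre in muscle fibres, so other cells of the tissue were not targeted. Both groups carry the floxed alleles, only the KO mice carry Cre, and an effect of Cre itself cannot be told apart from an effect of Ank2 loss. The groups were littermates housed together, and each library is a separate mouse.

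Ank2 encodes ankyrin-B, which ties membrane proteins to the spectrin network beneath the membrane. In cardiomyocytes it holds the sodium-calcium exchanger, the sodium pump and IP3 receptors close together where the transverse tubules meet the sarcoplasmic reticulum. The sodium pump sets the sodium gradient, the exchanger uses that gradient to move calcium out of the cell, and IP3 receptors release calcium from internal stores. In skeletal muscle the ryanodine receptor carries the calcium release that drives contraction, and IP3 receptors serve slower signals. Whether the transcripts of these cargo proteins differ when muscle fibres are designed to lack ankyrin-B is the question here. The position of the proteins was not measured.

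The paralogs are alike in sequence, so the longest coding stretches they share are shown first, because they bear on whether reads could be assigned to the wrong gene. Sequences are from GENCODE release M21 transcripts (mm10), positions count from the start codon, and capitals mark the longest run that both genes of a pair have in common. Itpr1 and Itpr2 shared at most 28 bases in a row:
Itpr1, coding bases 8054 to 8141: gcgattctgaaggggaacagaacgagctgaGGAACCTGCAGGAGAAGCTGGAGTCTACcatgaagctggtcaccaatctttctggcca
Itpr2, coding bases 7910 to 7997: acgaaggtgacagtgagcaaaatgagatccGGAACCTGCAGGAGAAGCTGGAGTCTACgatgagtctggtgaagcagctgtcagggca
Itpr1 and Itpr3 shared at most 29 bases:
Itpr1, coding bases 5872 to 5960: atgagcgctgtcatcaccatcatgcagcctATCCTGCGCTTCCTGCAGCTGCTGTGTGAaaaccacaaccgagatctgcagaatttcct
Itpr3, coding bases 5584 to 5672: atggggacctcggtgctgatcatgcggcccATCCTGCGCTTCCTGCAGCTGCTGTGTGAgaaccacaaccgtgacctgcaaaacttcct
Slc8a1 and Slc8a3 shared at most 17 bases, in their large intracellular loop:
Slc8a1, coding bases 1393 to 1469: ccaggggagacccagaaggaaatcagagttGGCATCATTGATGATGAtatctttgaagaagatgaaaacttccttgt
Slc8a3, coding bases 1369 to 1445: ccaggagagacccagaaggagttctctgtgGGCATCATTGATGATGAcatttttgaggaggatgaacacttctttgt
No word of 30 bases was common to either gene pair that includes Itpr1 or to the Slc8a pair, and 3 were common to Itpr2 and Itpr3, whose longest shared run was 32 bases. Atp1b1 and Atp1b2 shared at most 19 bases. In the annotation, 18.7% of the exonic bases of Atp1b1 also belong to Nme7 on the opposite strand, and the libraries do not record strand. Nme7 itself was low, with 10.1 to 36 estimated reads in a library against 316 or more for Atp1b1, and gave a change of -0.05 (SE 0.10, limma adjusted p = 0.748). For the other members the shared part was between 0% and 2.59% of exonic bases.

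The promoters of the exchanger genes are shown because the transcripts of this pair moved apart. They run from 250 bases before to 50 after the start that RefSeq gives for each gene (GRCm38.p6, the same assembly as mm10), written 5′ to 3′ along the gene. RefSeq promoters matched 5 of the 6 members, all but Itpr1. Capitals mark matches to CANNTG, the E-box that myogenic factors can bind, and to GGAAA, the core that NFAT factors can bind, on either strand:
Slc8a1, chr17:81738338-81738637, minus strand: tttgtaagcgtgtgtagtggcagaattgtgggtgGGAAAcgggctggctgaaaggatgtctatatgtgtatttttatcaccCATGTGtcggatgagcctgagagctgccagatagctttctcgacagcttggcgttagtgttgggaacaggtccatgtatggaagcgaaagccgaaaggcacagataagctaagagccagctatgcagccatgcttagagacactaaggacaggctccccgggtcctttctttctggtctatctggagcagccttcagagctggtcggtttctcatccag
Slc8a3, chr12:81333131-81333430, minus strand: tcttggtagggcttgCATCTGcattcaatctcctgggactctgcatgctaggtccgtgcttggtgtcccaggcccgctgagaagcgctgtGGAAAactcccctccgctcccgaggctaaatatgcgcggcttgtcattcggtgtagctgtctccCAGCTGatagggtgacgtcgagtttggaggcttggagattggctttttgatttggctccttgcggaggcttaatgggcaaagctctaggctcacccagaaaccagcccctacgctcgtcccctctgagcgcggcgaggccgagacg
Slc8a1 had 1 match and Slc8a3 had 2 matches to CANNTG, which occurs in 72.3% of 32851 RefSeq promoters of this length. Each had 1 match to GGAAA, which occurs in 61.3% of them. Neither held TATAAA, the TATA box, found in 13.6%. The Slc8a3 window held 18 CG pairs and the Slc8a1 window 9, against a median of 7 over all promoters. These matches describe the letters of the windows and were not tested for use in muscle.

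The targeted gene separated the groups: no KO library reached the Ank2 level of any WT library. Its deposited log2 value ran from 8.40 to 9.22 in WT, with a median of 8.98, and from 7.54 to 8.03 in KO, with a median of 7.68. The change was -1.15 (SE 0.14, limma adjusted p = 0.000884), and in scaled reads, with the transformation undone, KO muscle held 33.1% ± 7.12 of the mean WT level (SD, n = 6). Estimated depth was 12281349 to 18717851 reads per library, with a mean of 14131535 ± 1789753 in WT and 16187429 ± 1805849 in KO (SD over 6 mice per group), a difference that did not pass the test (exact permutation p = 0.0758). The tissue carried the genes of fast muscle fibres at very high levels, among them Myh4 at 20.44 in WT and 20.35 in KO, and Ckm at 18.69 and 18.76. Of 6 heart markers, Myl7 and Nppb were at the floor in all libraries, Nppa and Tnni3 had at most 2.02 and 6.02 estimated reads, and Myh6 and Myl4 reached 57.9 and 318. In bulk tissue, fewer cells of a type and less RNA per cell cannot be told apart.

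Of the 6 cargo genes, Itpr1 fell, Slc8a3 rose and 4 did not pass the test. Over all tested genes, 757 of 12219 passed (6.2%), with 3.12% higher and 3.08% lower in KO, at a Benjamini-Hochberg adjusted limma p of at most 0.05. Itpr1 ranked 69 of 12219 by p. Its KO and WT libraries did not overlap, which held for 2.47% of tested genes in either direction, for 1.2% with KO below WT and for 1.27% with KO above WT. The estimates of Slc8a1, Atp1b1, Itpr2 and Itpr3 were negative. In WT muscle the order of levels in scaled reads per kilobase of the longest annotated transcript was Atp1b1 at 603 ± 269, Slc8a3 at 197 ± 16.8, Itpr1 at 87.2 ± 26.1, Slc8a1 at 23.5 ± 4.05, Itpr3 at 13.5 ± 1.85 and Itpr2 at 10.4 ± 1.14 (SD over 6 mice per group). Itpr2 and Itpr3 overlapped in that order, as did Atp1b1 and Slc8a3 through WT 4, while the other neighbours were apart in every WT library. Slc8a1 changed place with the length used: per kilobase of coding sequence, a setting added after the data were seen, it stood at 149 ± 25.7, above Itpr1 at 104 ± 31.2 (SD, n = 6) with overlapping libraries.

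**Figure D1:**
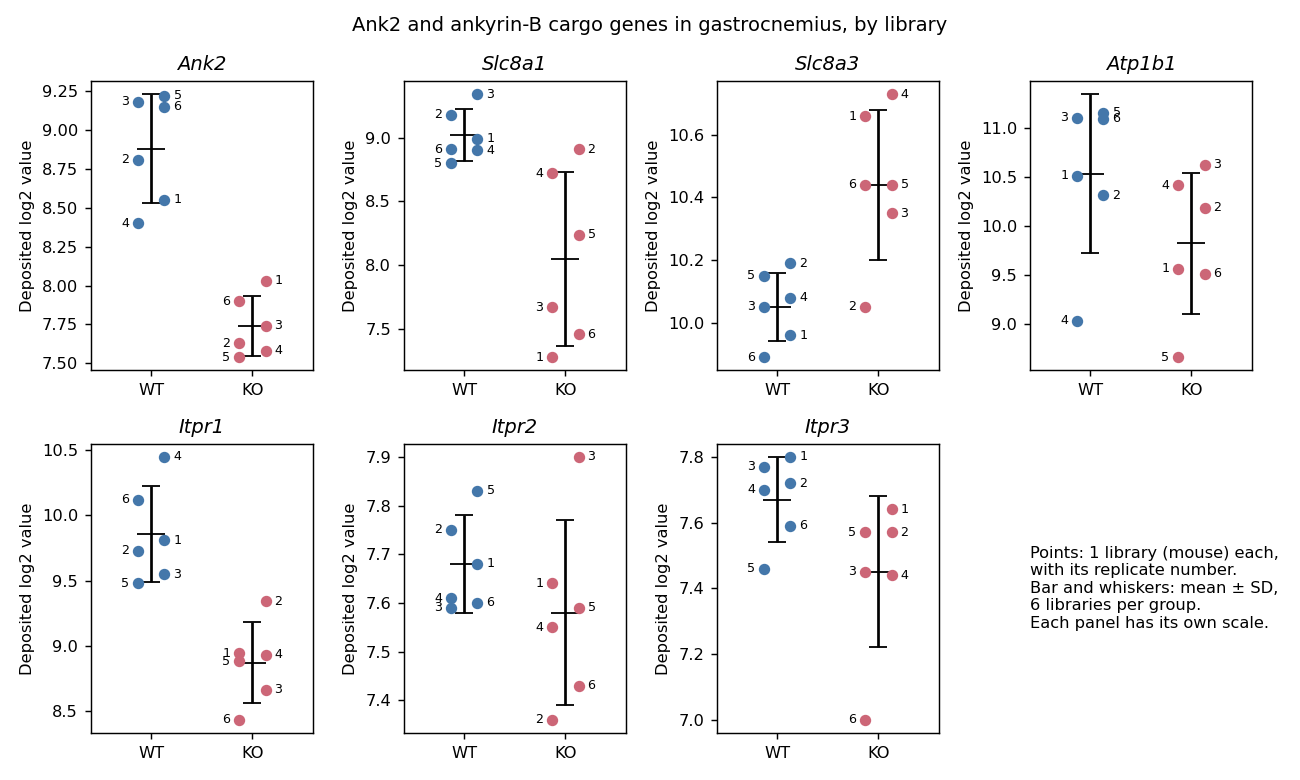
Deposited log2 value of Ank2 and the 6 cargo genes in each of 12 libraries, numbered by replicate; the bar and whiskers are mean ± SD over 6 libraries per group, and each panel has its own axis. Itpr1 separates the groups as Ank2 does, Slc8a1 runs from 7.28 to 8.91 in KO, and KO 2 stands with WT in both exchanger genes.

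Itpr1 encodes the IP3 receptor that is typical of neurons and smooth muscle, and it was the most abundant of the IP3 receptor genes in these muscles. Its deposited log2 value ran from 9.48 to 10.45 in WT, with a median of 9.77, and from 8.43 to 9.34 in KO, with a median of 8.91. WT 4 was the highest library, KO 6 the lowest, and KO 2 the nearest to WT. Itpr1 fell by 0.99 in KO (SE 0.17, 95% interval -1.36 to -0.62, limma adjusted p = 0.00855). In scaled reads the KO libraries held 44.8% ± 11.8 of the WT mean (SD, n = 6), from 29.8% to 64.9%, against 72.3% to 151% in WT. Itpr1 lies on the plus strand of chromosome 6 from 108213096 to 108551109 (mm10). Its values rest on 288 to 1320 estimated reads in a library. Itpr1 passed the test in each of 21 alternative settings, including the omission of each library, with an adjusted p of at most 0.0287. After removal of a trend with transcript length its change was -0.87 (limma adjusted p = 0.027).

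Itpr2 encodes an IP3 receptor with a high affinity for IP3, and Itpr3 one that is common in epithelia. Itpr2 ran between 7.59 and 7.83 in WT and between 7.36 and 7.90 in KO on the deposited log2 scale, and the KO libraries lay on both sides of the WT range. Its change was -0.10 (SE 0.09, 95% interval -0.28 to 0.08, limma adjusted p = 0.488), and it became 0.03 after removal of a trend with transcript length. Itpr3 ran between 7.46 and 7.80 in WT and between 7.00 and 7.64 in KO. Its change was -0.23 (SE 0.10, 95% interval -0.44 to -0.02, limma adjusted p = 0.162), and KO 6 at 7.00 lay well below the other KO libraries at 7.44 or above. Both genes had few reads, 71.4 to 166 per library for Itpr2 and 57 to 139 for Itpr3, and the deposited scale compresses differences at such levels. Itpr2 occupies 146108299 to 146502223 of chromosome 6 (minus strand) and Itpr3 occupies 27057304 to 27122223 of chromosome 17 (plus strand). With limma-voom on estimated reads the changes were -0.16 for Itpr2 (adjusted p = 0.493) and -0.40 for Itpr3 (adjusted p = 0.166).

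Itpr1 moved down relative to each of its paralogs within the same libraries. The difference Itpr1 minus Itpr3 was 2.18 ± 0.37 in WT and 1.42 ± 0.20 in KO on the deposited log2 scale (SD over 6 mice per group), a shift of -0.76 with no overlap of the groups (exact permutation p = 0.00216, below which 6 against 6 cannot go; adjusted p = 0.00866 over 4 paralog pairs). Itpr1 minus Itpr2 went from 2.18 ± 0.43 to 1.29 ± 0.41, a shift of -0.89 (exact permutation p = 0.00866, adjusted p = 0.0115). Itpr2 minus Itpr3 shifted by 0.13 (exact permutation p = 0.331, adjusted p = 0.331). In scaled reads per kilobase, Itpr1 made up 77.6% ± 4.96 of the IP3 receptor transcripts in WT and 65.8% ± 5.62 in KO (SD over 6 mice per group; a description, not tested). The share of Itpr2 was 9.83% ± 2.81 in WT and 16.5% ± 4.81 in KO, and that of Itpr3 was 12.6% ± 2.86 and 17.7% ± 2.38. The 3 genes summed to 111 ± 25.7 scaled reads per kilobase in WT and 58.9 ± 11.8 in KO, so the smaller Itpr1 share came with a smaller sum.

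**Figure D2:**
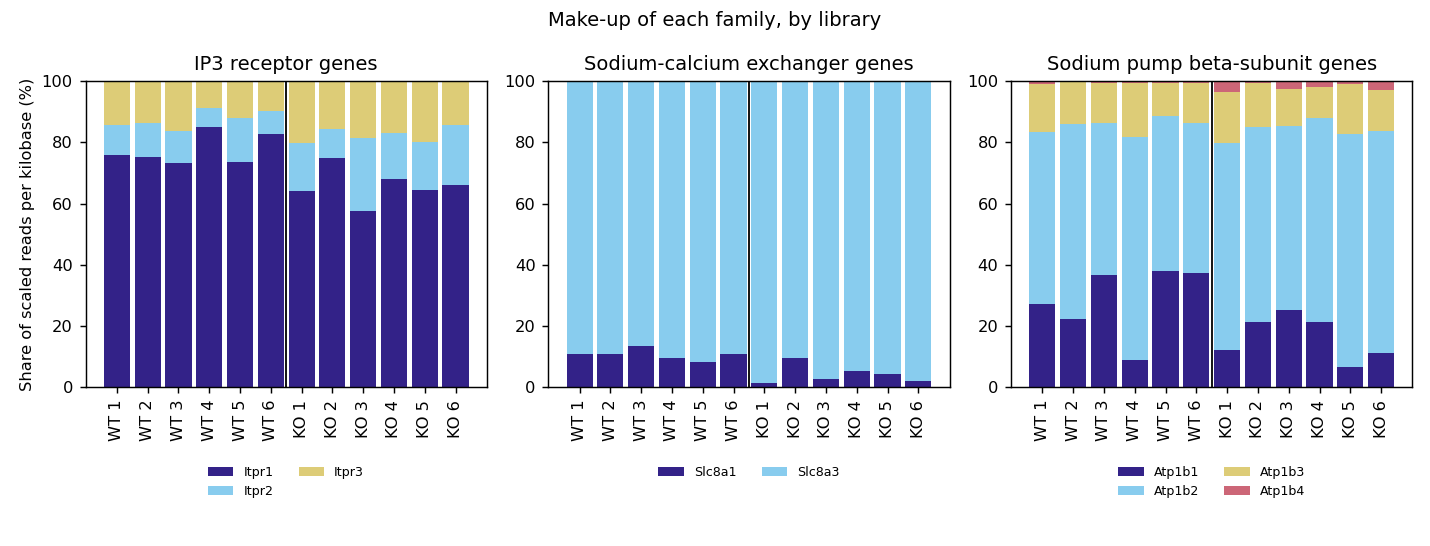
Share of each gene in the scaled reads per kilobase of its family, in percent, for IP3 receptors, sodium-calcium exchangers of the plasma membrane and sodium pump beta subunits; each bar is 1 library, WT to the left of the line. The Itpr1 share is 73.3% to 84.9% in WT and 57.7% to 74.9% in KO, and the Slc8a1 share is smallest in KO 1 and KO 6.

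Slc8a3 encodes NCX3, an exchanger of skeletal muscle and brain. Its deposited log2 value ran from 9.89 to 10.19 in WT, with a median of 10.06, and from 10.05 to 10.73 in KO, with a median of 10.44. KO 2 at 10.05 lay within the WT range, and the other 5 KO libraries lay above each WT library. Slc8a3 rose by 0.39 (SE 0.10, 95% interval 0.18 to 0.61, limma adjusted p = 0.035), and the KO level in scaled reads was 135% ± 23.3 of the mean in WT (SD, n = 6). Leaving out 1 library ended the call in 8 of 12 cases, which were WT 1, 2, 3, 5 and 6 and KO 1, 3 and 6, with an adjusted p of up to 0.0773, while the estimate stayed between 0.34 and 0.47. Without KO 2 the change was 0.47 (adjusted p = 0.00295). Slc8a3 occupies 81197915 to 81333180 of chromosome 12 (mm10, minus strand), and its libraries held 790 to 2000 estimated reads.

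Slc8a1 encodes NCX1, the main exchanger of heart muscle and the classical exchanger cargo of ankyrin-B. Its deposited log2 value ran from 8.80 to 9.34 in WT, with a median of 8.95, and from 7.28 to 8.91 in KO, with a median of 7.95. The KO libraries were far more spread than the WT libraries, with SDs of 0.68 and 0.20. KO 1 at 7.28, KO 6 at 7.46 and KO 3 at 7.67 were lowest, KO 5 at 8.24 and KO 4 at 8.72 lay between, and KO 2 at 8.91 was within the WT range. The change was -0.98 (SE 0.27, 95% interval -1.57 to -0.38), as large as that of Itpr1 on the deposited scale. The Slc8a1 change did not pass the test (limma adjusted p = 0.0577). In scaled reads the KO libraries held 17.2% to 89.9% of the WT mean and the WT libraries 82.3% to 128%. The change passed without KO 2 (-1.15, adjusted p = 0.0111), without KO 4 (-1.11, adjusted p = 0.0349), and with no trend or robust moderation of the variance (adjusted p = 0.0306). Slc8a1 occupies 81373105 to 81738377 of chromosome 17 (mm10, minus strand), and its libraries held 89.1 to 484 estimated reads. With limma-voom on estimated reads the changes were -1.37 for Slc8a1 (adjusted p = 0.0506) and -1.16 for Itpr1 (adjusted p = 0.00732).

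The exchanger genes moved apart in the same libraries. Slc8a3 minus Slc8a1 was 1.03 ± 0.22 in WT and 2.40 ± 0.79 in KO on the deposited log2 scale (SD over 6 mice per group), a shift of 1.37 (exact permutation p = 0.00649, adjusted p = 0.0115 over 4 paralog pairs). The sign held without any 1 library, from 1.17 to 1.62. In scaled reads per kilobase, Slc8a3 was 89.4% ± 1.66 of the pair in WT and 95.8% ± 3.09 in KO (SD over 6 mice per group; a description). These shares depend on length, since the longest annotated Slc8a1 transcript has 18464 bases of which 2913 are coding, against 4927 and 2787 for Slc8a3. Per coding base the Slc8a3 share was 70.2% in WT and 87.1% in KO. The pair summed to 221 ± 17.8 scaled reads per kilobase of the longest transcript in WT and 278 ± 44.4 in KO. This sum depends on length as well, since Slc8a1 counts for more per coding base. Per coding kilobase, Slc8a1 stood at 149 in WT and 70.1 in KO, and Slc8a3 at 349 and 472. The third plasma membrane exchanger gene, Slc8a2, did not pass the filter on low values.

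Atp1b1 encodes the beta1 subunit, which the catalytic alpha subunit of the sodium pump needs to reach the membrane. Its deposited log2 value ran from 9.03 to 11.15 in WT, with a median of 10.80, and from 8.66 to 10.62 in KO, with a median of 9.87, and the groups overlapped broadly. WT 4 at 9.03 and KO 5 at 8.66 were the lowest of their groups. The change was -0.71 (SE 0.43, 95% interval -1.67 to 0.25, limma adjusted p = 0.326), so a fall of more than 1 on the log2 scale and no change both lie within the interval. The estimate ran from -1.01 without WT 4 to -0.48 without KO 5, and no omission brought it past the threshold. Atp1b1 occupies 164437109 to 164458355 of chromosome 1 (mm10, minus strand), and its libraries held 316 to 2080 estimated reads.

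Among the other sodium pump subunits, Atp1b2, which encodes the main beta subunit of these muscles, gave 0.28 (SE 0.09, limma adjusted p = 0.0745). Atp1b2 passed under quantile normalization (0.37, adjusted p = 0.0293), after removal of the length trend (0.30, adjusted p = 0.0484), without WT 4 (adjusted p = 0.0374) and without KO 2 (adjusted p = 0.0344). Atp1b3 gave 0.01 (SE 0.09, adjusted p = 0.957). Atp1b4, a muscle gene of the beta family whose product in placental mammals is known from the nuclear membrane rather than the pump, rose by 0.93 (SE 0.25, adjusted p = 0.0499). It ran between 6.73 and 7.35 in WT and between 7.20 and 8.74 in KO, and its call ended without any 1 of 10 libraries, all but KO 2 and KO 5 (adjusted p up to 0.117). The Atp1b4 call was also lost with limma-voom (adjusted p = 0.0789), with no filter on low values (0.0556) and after removal of the length trend (0.0516). In scaled reads per kilobase, Atp1b1 was 28.4% ± 11.5 of the 4 beta genes in WT and 16.3% ± 7.36 in KO, Atp1b2 was 57.0% ± 9.64 and 67.7% ± 5.90, and their sum was 2080 ± 136 and 2120 ± 177 (SD over 6 mice per group; a description). The low-level Atp1a4, known from testis, gave 0.07 (SE 0.12, adjusted p = 0.723).

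Genes that work with the cargo were taken from 5 lists, of which 63 of 79 genes were tested. Of these, 5 rose and 2 fell, beside 3.12% and 3.08% of all tested genes, with a median change of -0.11 against -0.01 over all tested genes. In the list of other sodium and calcium extrusion, 1 of 7 rose and none fell (median -0.16). It was Slc8b1, the sodium-calcium exchanger of mitochondria, which ran between 7.45 and 7.66 in WT and between 7.84 and 8.66 in KO with no overlap (0.61, SE 0.12, limma adjusted p = 0.0133). In the list of sodium pump subunits and FXYD regulators, Atp1b4 alone of 9 rose and none fell (median 0.07).

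Of 16 genes that make and break down IP3, none passed limma on the deposited values or limma-voom on estimated reads. An unadjusted p under 0.05 was reached by 6 of them with limma and by 5 with limma-voom, beside 26.0% of all tested genes (3177 of 12219) with limma, and the median was -0.10. The smallest p was that of Plcd4, a phospholipase C gene (0.35, SE 0.11, limma adjusted p = 0.0643). In this list 1 gene rose under quantile normalization, after removal of the length trend and without KO 4. Without KO 2, 2 genes of the list rose. Of 13 IP3 receptor regulators and ryanodine receptors, 2 rose and 1 fell (median -0.13). Ryr3, a ryanodine receptor best known from developing muscle, ran from 6.41 to 6.88 in WT and rose to between 7.09 and 7.54 in KO with no overlap (0.66, SE 0.11, adjusted p = 0.00403), at 14 to 124 estimated reads per library. Mrvi1, whose product IRAG binds IP3 receptors and restrains them when cGMP kinase is active, rose by 1.03 (SE 0.24, adjusted p = 0.0342). Its WT libraries lay between 7.24 and 7.70 and its KO libraries between 7.72 and 9.51. Its call ended in 7 of 12 omissions, those of WT 1, 2, 3, 5 and 6 and of KO 1 and 3 (adjusted p up to 0.0821). Bcl2, an inhibitor of apoptosis that also binds IP3 receptors, fell by 0.57 (SE 0.16, adjusted p = 0.0466). That call ended without any 1 of 8 libraries, all but WT 4, WT 5, KO 2 and KO 5 (adjusted p up to 0.112), and after removal of the length trend (-0.48, adjusted p = 0.0743).

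Of 18 other ankyrin-B partners, 1 rose and 1 fell (median -0.10), and 16 of the 18 estimates were negative, against 6404 of 12219 over all tested genes. After removal of the length trend 12 of the 18 were negative (median -0.08), and under quantile normalization 15 were. Dmd, the dystrophin gene, fell by 1.18 (SE 0.19, limma adjusted p = 0.00672). Its WT libraries lay between 10.42 and 10.85 and its KO libraries between 8.85 and 10.19, with no overlap. Ehd4, which encodes an endosomal membrane-remodelling ATPase, rose by 0.59 (SE 0.11, adjusted p = 0.00779). Its WT libraries lay between 9.13 and 9.65 and its KO libraries between 9.58 and 10.21. Both kept their calls without any 1 library. Partners that did not pass included Slc2a4, the insulin-regulated glucose transporter (-0.12, SE 0.08, adjusted p = 0.383).

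**Figure D3:**
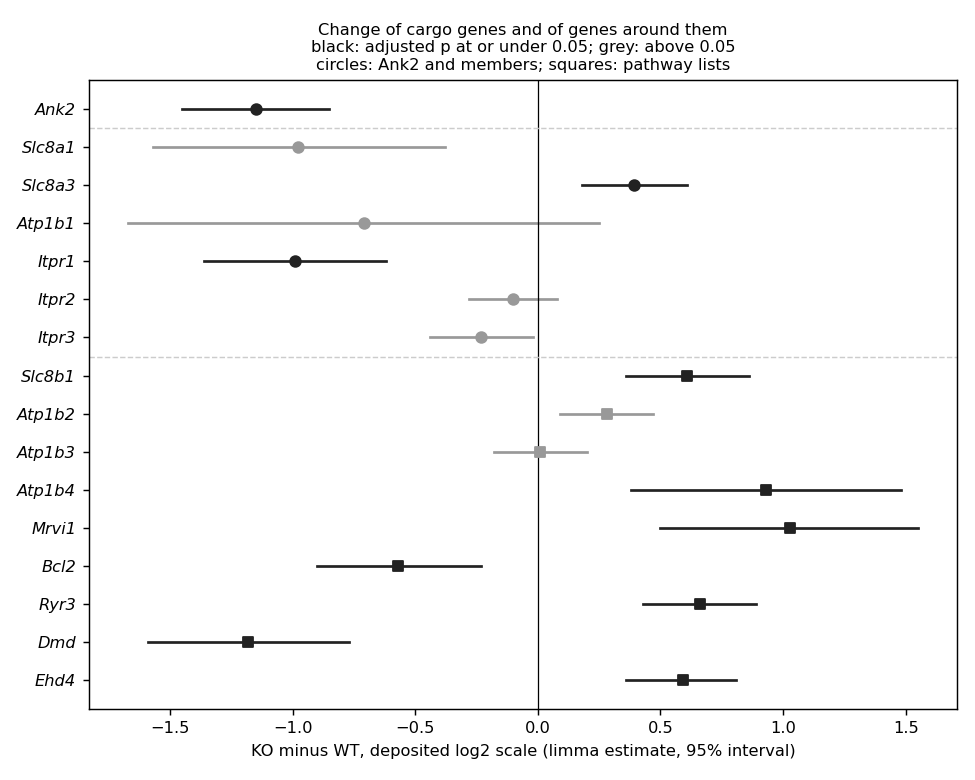
KO minus WT on the deposited log2 scale with its 95% interval from limma, for Ank2 (top), the 6 cargo genes (middle, circles) and genes of the pathway lists (squares); black marks an adjusted p at or under 0.05. Itpr1 and Slc8a1 have near-equal estimates but intervals of different width, and Slc8b1 rises beside Slc8a3.

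Several of these differences were larger without KO 2. Its Ank2 value of 7.63 lay within the range of the other KO libraries. Its estimated depth, 13423206 reads, was the lowest of the KO libraries. Why KO 2 differed was not tested, and leaving out the KO library nearest to the WT mean can by itself enlarge a difference. KO 2 was the KO library nearest to the WT mean for Slc8a1, Slc8a3 and Itpr1, and for Dmd, Slc8b1, Mrvi1, Bcl2, Ehd4 and Atp1b4. For Ank2, Itpr2 and Itpr3 it was KO 1, for Atp1b1 it was KO 3, and for Ryr3 it was KO 4. Without KO 2, 12 genes of the 5 lists were called in place of 7, and 1515 genes in all in place of 757. Itpr1 then gave a limma adjusted p of 0.000898. The list count was not particular to KO 2, since it was also 12 without WT 4, with 878 genes in all.

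**Figure D4:**
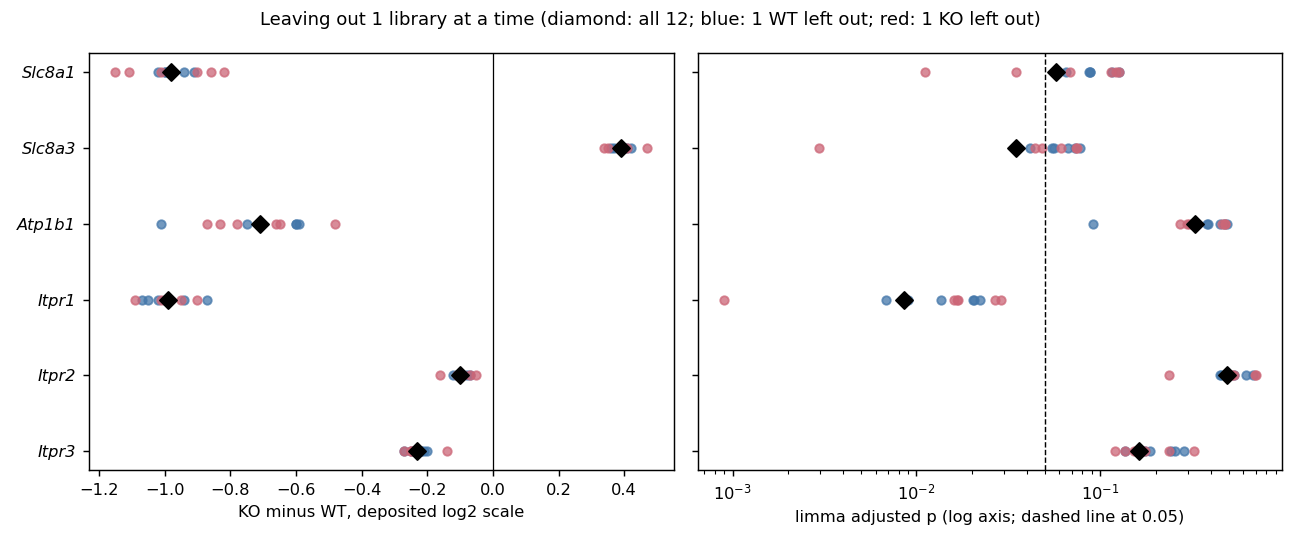
Change (left, deposited log2 scale) and limma adjusted p (right, log axis) of each cargo gene with all 12 libraries (diamond) and with 1 library left out (blue: a WT library, red: a KO library). Itpr1 stays left of the dashed line at 0.05 in every fit, Slc8a3 crosses it in 8 and Slc8a1 crosses it in 2.

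For each of the 2 members with the widest spread, 1 gene that varied with it across the libraries is shown. Every other member also had genes that followed it closely. Atp1b1 followed Myh2, the myosin of fast oxidative fibres, with r = 0.97 (Spearman rho 0.98) over 12 libraries after each group mean was subtracted, and r = 0.92 without KO 5 and WT 4, the libraries farthest out in Myh2. Myh2 ran from 12.51 in WT 4 to 15.74 in WT and from 11.00 in KO 5 to 14.72 in KO, with a change of -1.40 that did not pass (limma adjusted p = 0.269). Markers of slow fibres gave summed scaled reads between 6280 and 59800 in WT and between 1190 and 16000 in KO, with 8 of 8 estimates negative, 6 at an unadjusted p under 0.05 (26.0% of all tested genes) and none past the test (median -1.83; with limma-voom also none, 5 unadjusted). Within groups Atp1b1 followed the mean of these slow-fibre markers less closely than Myh2 (r = 0.58, Spearman rho 0.47). The part of the slow-fibre markers in the Atp1b1 estimate was not tested. Slc8a1 followed Dmd with r = 0.87 (Spearman rho 0.85), and r = 0.71 without KO 1 and KO 2. KO 1, KO 3 and KO 6 were the lowest libraries for both. Dmd was not the gene closest to Slc8a1, since Sos2 and Satb1 each gave r = 0.96. The pairs with Myh2 and Dmd were picked after their values were seen, so these correlations are descriptions, and the points share library and normalization.

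**Figure D5:**
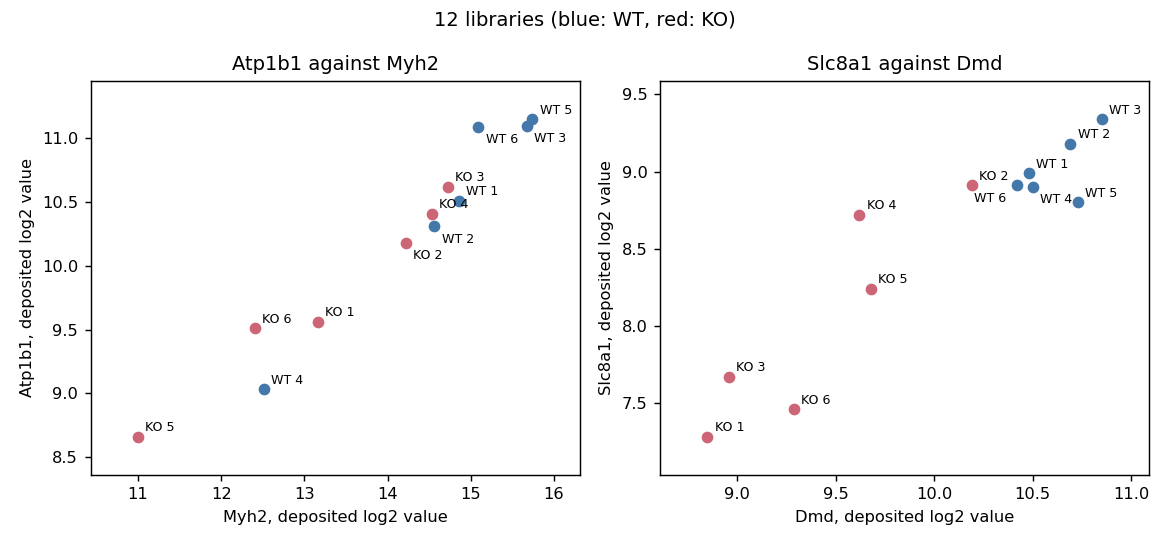
Deposited log2 value of Atp1b1 against Myh2 (left) and of Slc8a1 against Dmd (right), 1 point per library, WT in blue and KO in red. WT 4 and KO 5 are low in both Atp1b1 and Myh2, and KO 1, KO 3 and KO 6 are low in both Slc8a1 and Dmd.

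Vessel and connective tissue cells also express IP3 receptors and exchangers, so their markers are given beside these results. Over all tested genes limma called 6.2%, with 3.12% higher and 3.08% lower in KO, and single called markers below stand beside that share. Of 10 smooth muscle and pericyte markers, Myh11 fell (-0.54, SE 0.14, limma adjusted p = 0.0419), the median was -0.26, and the summed scaled reads ran between 7580 and 9870 in WT and between 5750 and 9110 in KO. Of these 10, 9 estimates were negative, against 6404 of 12219 over all tested genes. An unadjusted limma p under 0.05 was reached by 4 of them, against 26.0% of all tested genes. Of 10 endothelial markers, Flt1 fell (-0.50, SE 0.13, adjusted p = 0.0347), the median was -0.22, and the sums ran from 5050 to 6850 and from 4100 to 6120. Here too 9 of 10 estimates were negative, and 5 had an unadjusted limma p under 0.05. None of 8 fibroblast and none of 10 macrophage markers was called (medians 0.16 and 0.22), with 0 and 2 at an unadjusted limma p under 0.05, against 26.0% of all tested genes. Limma-voom had 0 and 3 there and also called none. Their sums overlapped, from 4440 to 10600 in WT and 5680 to 10700 in KO for fibroblasts, and from 416 to 1530 and 523 to 1520 for macrophages. Of 3 adipocyte markers tested, Adipoq fell (-0.34, SE 0.09, adjusted p = 0.043), all 3 estimates were negative, and the sums of the list lay between 58 and 236 in WT and between 31.9 and 126 in KO. Of 7 Schwann cell markers none was called by limma or limma-voom, none had an unadjusted p under 0.05, and 7 of 7 estimates were negative (median -0.11), with sums of 730 to 2810 in WT and 274 to 5330 in KO. KO 6 was lowest in both the Schwann cell sum and Itpr3. Over the 12 libraries Itpr3 followed the mean of the Schwann cell markers within groups (r = 0.71, Spearman rho 0.76). This was the strongest of its correlations with the 10 marker lists and is a description. Itpr3 ran against fibroblast markers (r = -0.64, rho -0.55) and macrophage markers (r = -0.59, rho -0.2). Itpr1 changed by -0.99, and sizes of change of genes at different levels on this scale do not give the part of a cell type. The part of these other cells in the values of Itpr1, Itpr3 and Slc8a1 was not tested.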

How the data were processed

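Poly-A RNA of 12 gastrocnemius muscles was sequenced in paired ends from NEBNext Ultra libraries without a strand-marking step, per the labels' protocols. The tools fastp, STAR and featureCounts and the build mm10 are listed, per the submitters' processing notes; how they were set and how values were normalized is not given in the sources used here. The authors deposited 1 table of log2 values, 1 column per mouse, with a shared floor of 5.568 and the shape of a variance-stabilizing transformation, which compresses differences between low values. The design provided for a count test on counts or limma on log values, and limma applied.

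Scaled reads were obtained by inverting the closed form of that transformation, with 1 read set to the commonest smallest step within a library. Between 89.7% and 93.7% of low values (0.3 to 10.5 reads) then fell within 0.1 of a whole number, so estimated reads are approximate. They served for depth, the filter (at least 10 reads in at least 6 libraries), levels, shares and some alternatives. The 12219 genes left entered limma 3.58.1 (R 4.3.3), fitted to the deposited values by group alone with variance trend and robust moderation. Two-sided p-values received the Benjamini-Hochberg adjustment (threshold 0.05). Single values were compared by exact two-sided permutation over all assignments of 6 libraries to KO. The fit was tested on simulated data. Positions and lengths are from GENCODE M21 (longest transcript), and 250 tested genes had no length there. Promoters are from RefSeq.

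The 6 members and the lists (5 of pathway genes, 10 of cell type markers) were chosen with earlier results of these data known. Named genes are the members, Ank2, called list genes, sodium pump subunit genes (some are not reported here), and the 2 genes most like each member by correlation; Plcd4, Slc2a4, Nme7 and the marker genes named were added after their values were seen. Alternatives covered limma-voom, moderation, scaling, pseudocounts of 1 and 0.1, filters, gene length, a replicate block and each library left out. No set test was run. P-values measure the spread between mice; reads without molecular identifiers may include PCR copies.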

Additional observations from a re-analysis of the deposited data

Results flagged for a closer look

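Among 38 groups of 6 values (19 genes in WT and in KO), 4 held a library whose gap to its nearest neighbour was above Dixon's 95% critical share of the range; chance flags about 1 group in 20. Itpr3 in KO 6 was 7.00, and the next KO library was at 7.44; KO 6 also had the lowest Schwann cell marker sum (274 scaled reads). Mrvi1 in WT 6 was 7.24, next to 7.53. Ehd4 in KO 2 was 9.58, next to 10.00, and Atp1a4 in KO 2 was 6.07, next to 6.22 (all deposited log2 values). The cause was not tested.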

How the results depend on the processing

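The number of genes called was 757, and it ran from 194 to 1515 when 1 library was left out; it moved by over 1.5 times without WT 1, WT 2, WT 3, WT 5, WT 6, KO 1, KO 2, KO 3 or KO 6. The count over the 5 pathway lists was 7 and ran from 4 to 12 in the same omissions (an alternative added after the data were seen). Ank2 and Itpr1 passed in each of the 21 settings, and Slc8a3 in 13, with estimates from 0.34 to 0.47 over the omissions. Slc8a1 passed in 3, namely with no trend or robust moderation (-0.98, adjusted p = 0.0306) and without KO 2 or KO 4, and its estimate ran from -1.15 to -0.82 over the omissions. Removing a trend with transcript length turned Itpr2 to 0.03 and Atp1b3 to -0.03. The same step brought Ank2 to -1.01, Dmd to -1.03, Itpr1 to -0.87, Slc8a1 to -0.82 and Itpr3 to -0.12, all smaller falls. Slc8a3 became 0.44, a larger rise. Leaving out 1 library at a time, Atp1b3 ran from -0.04 to 0.07 and Atp1a4 from -0.04 to 0.13. The Slc8a3 share of the exchanger pair was 69.3% in WT and 86.6% in KO without division by length, and 70.2% and 87.1% with coding length (added after the data were seen), which follows from the long untranslated part of Slc8a1. For the other changes the cause was not tested.

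WT and KO replicates share numbers, and deviations of same-numbered libraries correlated at 0.29, 0.19, -0.08, -0.36, -0.07 and -0.03. These values show no clear pairing of the mice by number, but they cannot exclude one. With the replicate block, 797 genes were called; Itpr1 gave -0.99 (adjusted p = 0.0184), Slc8a3 0.39 (0.041) and Slc8a1 -0.98 (0.0914), while Mrvi1 (0.08) and Bcl2 (0.0982) were not called. Under a replicate block of sign changes, the paralog shifts gave adjusted p = 0.0833 for Itpr1 minus Itpr2 (-0.89), 0.0625 for Itpr1 minus Itpr3 (-0.76) and 0.0625 for Slc8a3 minus Slc8a1 (1.37), by exact permutation. With 6 number pairs no unadjusted p under 0.0312 is possible; Itpr1 minus Itpr3 and Slc8a3 minus Slc8a1 were at that limit, so these p-values say little about stability.

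Few reads limit Itpr2 and Itpr3, whose changes on the compressed scale are understated.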

Other observations

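Among 10677 eligible genes, those whose deviations from the group means followed each member most closely over the 12 libraries were Sos2 (r = 0.96) and Satb1 (0.96) for Slc8a1, and Mme (0.94) and Myof (0.87) for Slc8a3. For Atp1b1 they were Acadvl (0.98), which encodes an enzyme of mitochondrial fatty acid oxidation, and Apol6 (0.97). For Itpr1 they were Rhbdf2 (0.95) and Ubl7 (0.93), for Itpr2 Prpf4b (0.92) and Sned1 (0.89), and for Itpr3 Fance (0.85) and Snx2 (0.85). Of these, only Sos2, a guanine nucleotide exchange factor gene, passed the test between KO and WT (-0.50, SE 0.14, limma adjusted p = 0.0482). The pairs were selected for a high r, so the values are descriptions.

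Itpr1 ran against the mean of the fibroblast markers within groups (r = -0.87, Spearman rho -0.84, 12 libraries) and against that of the macrophage markers (r = -0.82, rho -0.76). These were its strongest correlations with the 10 marker lists and are descriptions. With smooth muscle and pericyte markers r was -0.39, and with endothelial markers -0.21. WT 4, the highest Itpr1 library at 10.45, had the lowest fibroblast sum at 4440 scaled reads, and KO 6, the lowest at 8.43, had the highest at 10700. Atp1b1 ran against Ckm (r = -0.90) and with Mb, the myoglobin gene (r = 0.96), in the same libraries. Of the same fibre list, Acta1 (-0.84), Tnnt3 (-0.80) and Myh4 (-0.53) also ran against Atp1b1. Between members, r over the same deviations ran from -0.43 for Slc8a1 with Itpr2 to 0.48 for Itpr1 with Itpr3.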
